A study of Mus musculus with 9 samples.

Results

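Polycomb repressive complex 2 (PRC2) is the enzyme complex that places H3K27me3, trimethylation of lysine 27 on histone H3, a mark of silenced genes. Suz12 is one of its core subunits and marks where the complex sits on chromatin. Phf19 is an accessory Polycomb-like protein with a Tudor domain that recognises methylated lysine 36 of the same histone. In embryonic stem cells PRC2 is best known for occupying the CpG-rich promoters of developmental regulators, and not every place it occupies carries every accessory protein. The sites described here are those at which H3K27me3 was listed in cells depleted of Phf19, on a Suz12 site and off any Phf19 site. They were chosen by the overlap of 3 deposited site lists: at least 1 base shared with a Suz12 site and none with a Phf19 site. The rule was met by 318 of the 1180 H3K27me3 sites of the depleted cells, 26.9% (exact 95% interval 24.4 to 29.6). They are called Suz12-only sites below. Of the other sites in that list, 655 overlapped both Suz12 and Phf19, 205 overlapped neither, and 2 overlapped Phf19 alone.

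All libraries were chromatin immunoprecipitations from E14Tg2A, a mouse embryonic stem cell line grown in serum and leukemia inhibitory factor without feeder cells. H3K27me3 was profiled in 1 library of cells carrying a random short hairpin RNA (shRd, control) and in 1 library of cells depleted of Phf19 by a hairpin against it (shPhf19). Suz12 (1 library) and Phf19 (2 replicates, with the list restricted to sites found in both) were profiled in wild-type cells, so the overlaps used here refer to where both proteins sat before depletion. Each file gives positions in the mouse build mm9 and no score, height or count, so depth is unknown and a site missing from a list is not shown to lack the protein or the mark. No value for the extent of the depletion was used here. Each H3K27me3 condition is a single library, so differences between conditions have no replicate check. The antibody catalogue number on the labels is 07449 for shRd and 07450 for shPhf19, and a difference in antibody, if there was one, cannot be told apart from the depletion. The lists name no genes and no mm9 annotation was used, so sites are given by position.

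The Suz12-only sites fell into 3 kinds according to the control cells. On a control H3K27me3 site lay 296 of the 318, 93.1% (89.7 to 95.6), against 86.2% of all 1180 sites of the depleted cells and 92.7% (90.4 to 94.5) of the 655 sites with Suz12 and Phf19. The control site with the largest overlap is called the parent domain. In 133 of the 296, 44.9% (39.2 to 50.8), the parent domain held Phf19 elsewhere along its length. In 163 it held no listed Phf19 site. The remaining 22 had no control site under them. Most Suz12-only sites lay within a wider domain: 278 of the 296 lay wholly inside the parent, and 1 was wider than it. This was not particular to them. Of the 607 sites with Suz12 and Phf19 on a control site, 594 lay wholly inside theirs and 1 was wider.

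Distance to Phf19 separated these kinds. The gap from a Suz12-only site to the nearest Phf19 site had a median of 5.58 kb, but few sites lay near that value. Within 1 kb of Phf19 lay 107 sites, 51 lay between 1 and 5 kb, 8 between 5 and 10 kb, 39 between 10 and 100 kb, 88 between 100 kb and 1 Mb, and 25 beyond 1 Mb. Sites whose parent domain held Phf19 had a median gap of 393 bp (interquartile range 140 to 1153 bp). For sites in domains without Phf19 the median gap was 168 kb (33.4 to 508 kb). Part of that contrast follows from the definition, since Phf19 in the same domain has to be near. The rule asks for no shared base, so its edge runs through closely spaced sites. The smallest gaps were 2, 6 and 18 bp, and 23 Suz12-only sites lay within 100 bp of Phf19. On the other side of the edge, the smallest overlaps among the 655 sites with both proteins were 6, 14 and 16 bp, and 20 shared at most 100 bp.

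**Figure D1:**
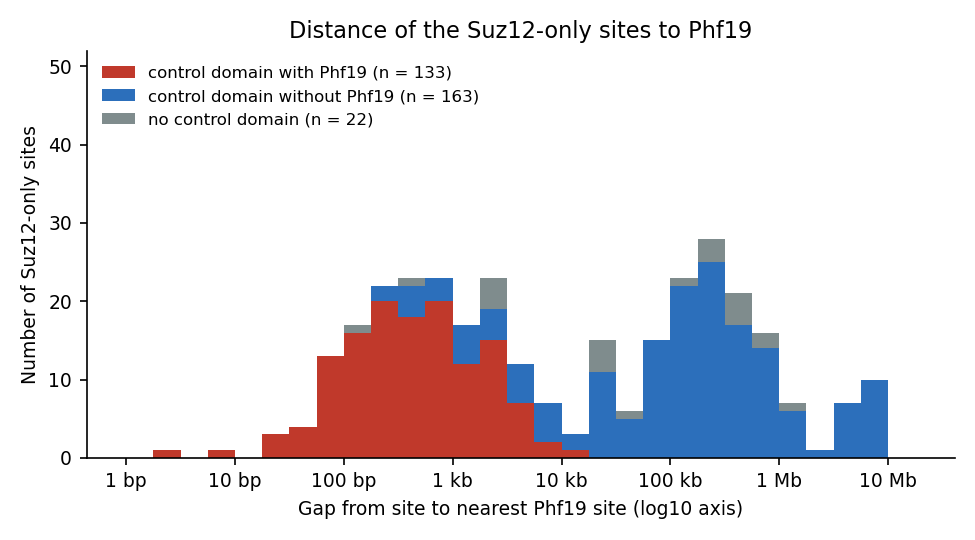
Number of Suz12-only sites by the gap to the nearest Phf19 site (log axis), stacked by parent domain. Sites in control domains with Phf19 (red, 133) pile up between 100 bp and 5 kb, sites in control domains without it (blue, 163) mostly between 100 kb and 1 Mb, and the 22 without a control domain (grey) are spread over both ranges.

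Where the parent domain held Phf19, the Suz12-only site was usually a neighbour of the Phf19 site on the same stretch of Suz12. The 133 sites lay in 112 domains, of which 97 held 1 such site, 12 held 2 and 3 held more. Of the 133, 101 (75.9%, 67.8 to 82.9) sat on a Suz12 site that itself overlapped Phf19 further along. Of all 8054 Suz12 sites, 1924 overlapped Phf19. The gap between the Suz12-only site and its nearest Phf19 site was covered by Suz12 from end to end in 97 cases (72.9%, 64.5 to 80.3). The 133 were picked for Phf19 in the same domain, so part of the shares of 75.9% and 72.9% follows from the choice. The nearest Phf19 site was on Suz12 in 130 of the 133 cases, as were 3398 of all 4633 Phf19 sites. In 40 cases (30.1%, 22.4 to 38.6) the nearest Phf19 site was itself under another H3K27me3 site of the depleted cells, and in the other 93 cases it was not. The rule keeps the Suz12-only site itself from covering it, so this share is partly fixed. Of all 4633 Phf19 sites, 958 lay under a depleted-cell site. Of those in control domains still listed, 882 did and 608 did not. The nearest Phf19 sites, 125 in number, were 626 bp wide in the median, and the sites of the whole Phf19 list 461 bp. In the control domains with Phf19 that were still listed, Phf19 sites under a depleted-cell site were 822 bp wide in the median and those not under one 561 bp.

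After depletion, the sites listed in a Phf19 domain did not always lie on Phf19. Of 1776 control domains with Phf19, 492 (27.7%, 25.6 to 29.8) were still overlapped by a site of the depleted cells. In 63 of the 492 (12.8%, 9.98 to 16.1) every such site was Suz12-only. In 50 (10.2%, 7.64 to 13.2) Suz12-only sites and other sites of the depleted cells were listed in the same domain. Whether those other sites lay on Phf19 in each of the 50 mixed domains was not counted. The 63 include 1 domain whose Suz12-only site shares more bases with a second control domain, its parent here. The 63 domains had a median width of 5.53 kb and a median of 1 Phf19 site, and the 50 mixed domains 15.4 kb and 4 Phf19 sites. Over all 492 domains, Phf19 sites took up 31.6% of the length, and the depleted-cell sites covered 43.7% of the Phf19 length and 23.1% of the rest. In the mixed domains the corresponding shares were 45.3% and 32.9%, and in the 379 domains listed without a Suz12-only site 46.3% and 19.8%. Both groups were picked by whether they held a Suz12-only site, which lies off Phf19, so the choice fixes part of these shares. In the 63 domains the share of Phf19 length is 0 by the way they were picked, and 25.5% of the remaining length was covered.

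The 3 widest parent domains show the mixed arrangement. At chromosome 6, 52171839 to 52210635 (38.8 kb, 15 Phf19 sites), 10 sites of the depleted cells were listed and 2 of them were Suz12-only. These lay at 52172084 to 52173211, 393 bp from Phf19, and at 52190817 to 52192076, 180 bp from Phf19, and Suz12 covered 96.2% and 96.3% of them. At chromosome 11, 96180330 to 96216880 (36.6 kb, 14 Phf19 sites), 2 of 8 sites were Suz12-only, at 96190106 to 96192779 (gap 217 bp) and 96198880 to 96201034 (gap 1659 bp). At chromosome 2, 74559320 to 74595016 (35.7 kb, 9 Phf19 sites), 4 of 9 were Suz12-only. Among them, that at 74562011 to 74563307 lay 2043 bp from Phf19. In all 3 domains, sites on Phf19 and Suz12-only sites were thus listed beside each other.

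**Figure D2:**
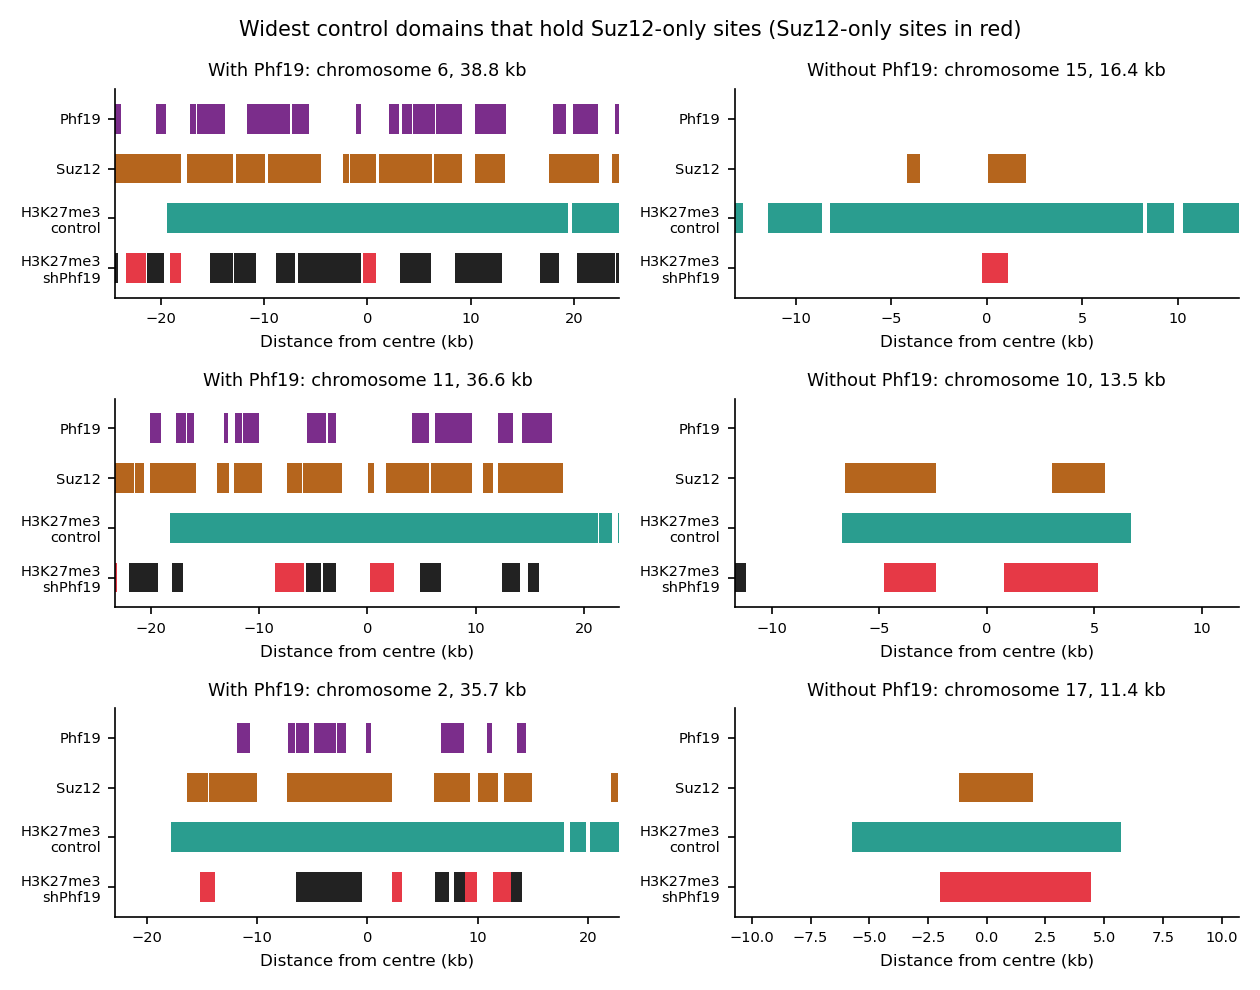
Sites of the 4 lists along the 3 widest control domains that hold Phf19 and a Suz12-only site (left) and the 3 widest without Phf19 (right), drawn to scale against the distance from the domain centre in kb, with 5 kb on either side. Suz12-only sites are red and other sites of the depleted cells black. On the left the red blocks are interspersed with Phf19 and black blocks, and on the right they lie inside the domain with no Phf19 block in view.

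The 5 sites closest to Phf19 lay in domains of 2.21 to 14.9 kb. At chromosome 5, 24030905 to 24032017 (gap 2 bp), the site covered 50.4% of a 2.21 kb domain with 1 Phf19 site and was wholly under Suz12. That at chromosome 4, 76094174 to 76095199 (gap 20 bp), covered 40.3% of a 2.54 kb domain, and that at chromosome 4, 109336589 to 109338447 (gap 31 bp), covered 59.4% of a 3.13 kb domain. At chromosome 9, 24576315 to 24578071 (gap 6 bp), the only listed site covered 11.8% of a 14.9 kb domain with 5 Phf19 sites. At chromosome 9, 37266412 to 37267478 (gap 18 bp), the site was 1 of 3 in a 7.36 kb domain. In the first 4 of these 5 domains the Suz12-only site was the only site listed after depletion.

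The 163 Suz12-only sites in domains without Phf19 made up the larger kind. They lay in 157 domains, 151 with 1 site and 6 with 2. Phf19 was within 10 kb of 28 of them (17.2%, 11.7 to 23.9), outside the domain. In 24 of these 28 cases (85.7%, 67.3 to 96.0) that Phf19 site lay on a different control H3K27me3 site, and in 27 of 28 on Suz12. Of all 4633 Phf19 sites, 3346 lay on a control H3K27me3 site and 3398 on Suz12. For 24 of the 163 the nearest Phf19 site was over 1 Mb away. A Suz12 site that reached Phf19 beyond the domain lay under 15 (9.20%, 5.24 to 14.7).

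Which control domains of this kind stayed listed was then examined. Control domains with Suz12 and without Phf19 numbered 4029, and 160 of them (3.97%, 3.39 to 4.62) were still listed. This compares with 8.96% of all 8280 control sites and the 27.7% of control domains with Phf19 given above. The 492 still listed domains with Phf19 had a median width of 6.69 kb, and the 160 here 3.83 kb. The part of domain width in this contrast was not tested. Of the 160, 157 were listed through a Suz12-only site. The domains still listed were wider, with a median of 3.83 kb against 2.15 kb for those no longer listed. Their widest Suz12 site was wider too, 2.46 kb against 1.82 kb in the median. The share of the domain under Suz12 was close in both, 51.5% (interval of the median 47.7 to 54.6) and 50.9% (49.8 to 51.8). Among 5 equal classes by domain width, 0.124% (0.00314 to 0.689) of the narrowest and 11.5% (9.41 to 13.9) of the widest were still listed. Since 1 shared base is enough, a wider domain has more bases on which to be listed. Part of this rise therefore follows from the definition.

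Suz12 width went with staying listed also among wide domains. Over all 4029 domains, those whose widest Suz12 site exceeded the median of 1838 bp kept a listed site at a rate of 6.16% (5.15 to 7.30) and the others at 1.79% (1.25 to 2.46), a difference of 4.37 percentage points (Newcombe 95% interval 3.19 to 5.61). Within the widest of the 5 classes the shares were 14.1% (77 of 546) and 6.15% (16 of 260), a difference of 7.95 points (3.46 to 11.9). Domain widths still varied inside that class, and their part in the difference was not tested. In the narrowest 2 classes 8 domains in all were still listed, too few to compare.

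Nearness to Phf19 separated the domains less clearly. The median gap to Phf19 was 160 kb for domains still listed and 163 kb for those no longer listed. With Phf19 up to 1 kb away, 5.56% (3.14 to 9.0) were still listed, between 1 and 10 kb 4.79% (2.76 to 7.66), between 10 and 100 kb 3.34% (2.29 to 4.68), between 100 kb and 1 Mb 3.75% (2.97 to 4.67), and beyond 1 Mb 4.77% (2.98 to 7.20). Domains within 10 kb of Phf19 exceeded the others by 1.37 points, with an interval of -0.280 to 3.51 that holds 0. At or above the median domain width the difference was 2.28 points (-0.711 to 6.17). All of these intervals cover counting error only and treat neighbouring domains as independent.

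**Figure D3:**
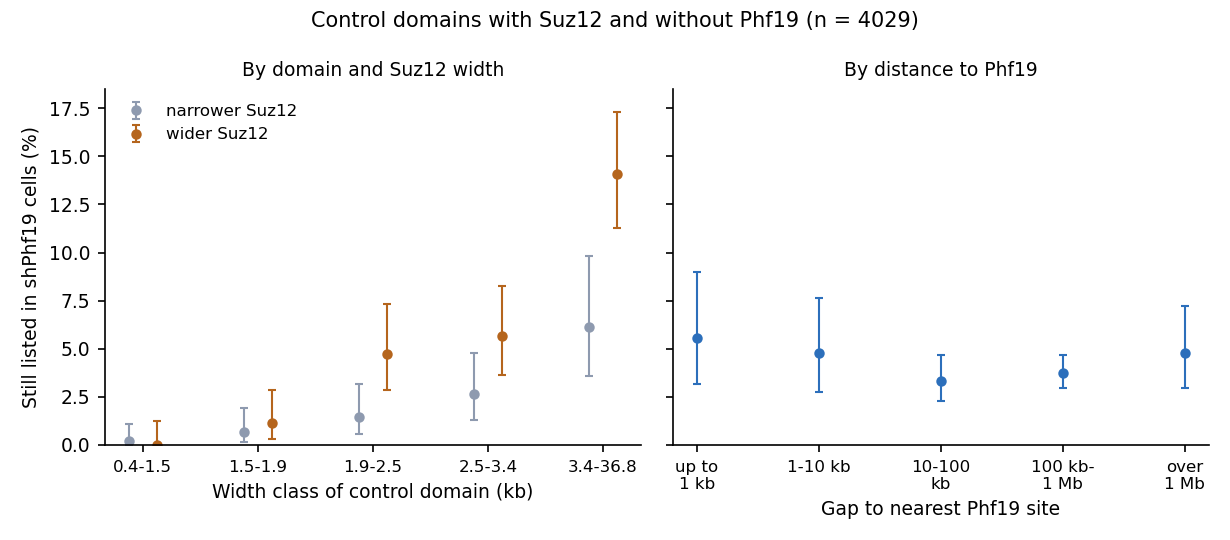
Percent of control domains with Suz12 and without Phf19 still listed in depleted cells (points, with exact 95% intervals), by width class of the domain with the widest Suz12 site at most 1838 bp (grey) or above it (brown), and by the gap to the nearest Phf19 site. The share grows to 14.1% in the widest domains with wider Suz12 and stays between 3.34% and 5.56% over the distance classes.

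The widest control domains with Suz12 and without Phf19, up to 36.8 kb, were among those no longer listed. In the 3 widest that held a Suz12-only site, the listed part ranged from 8.26% to 55.9% of the domain. At chromosome 15, 93340237 to 93356598 (16.4 kb), a single site of 1.35 kb at 93348182 to 93349533 remained, 8.26% of the domain, with Phf19 1844 kb away. At chromosome 10, 21867851 to 21881305 (13.5 kb), a pair of sites, 21869778 to 21872209 and 21875371 to 21879764, covered 50.7%, each on its own Suz12 site. At chromosome 17, 36214936 to 36226384 (11.4 kb), 36218691 to 36220467 and 36220475 to 36225102 adjoined each other on 1 Suz12 site of 3.13 kb and covered 55.9%. Phf19 was 991 kb from the closer site on chromosome 10 and 611 kb from that on chromosome 17.

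Suz12-only sites varied in width much less than their parent domains, and the share of the domain they spanned was lower in wider domains. Their median width was 1355 bp (interquartile range 1145 to 1692 bp). It was 1321 bp in domains with Phf19 and 1353 bp in domains without, while the parent domains had medians of 10.8 kb and 3.86 kb. The site therefore spanned a median of 14.5% of the domain (8.58 to 24.2%) in the first kind and 37.7% (27.5 to 50.5%) in the second. Over the 296 sites on a parent, split into 4 equal classes by parent width, the median site width was 1270, 1354, 1356 and 1450 bp from the narrowest to the widest parents, and the median share of the parent was 51.5%, 33.5%, 21.2% and 8.62%. Spearman's rho between both widths was 0.21 over the 296 sites, given as a description, since several sites share a parent. In domains without Phf19 alone, the median site width went from 1258 bp in the narrowest of 4 classes to 1664 bp in the widest (rho 0.31), and in domains with Phf19 from 1242 to 1368 bp (rho 0.27). In the class of the widest domains with Phf19, 17.1 to 38.8 kb, the median share was 6.62%. The pattern was not particular to Suz12-only sites. For the 607 sites with Suz12 and Phf19 on a control site, median widths in the 4 classes were 1394, 1444, 1576 and 1682 bp. Their median shares were 36.7%, 21.0%, 12.4% and 8.10% (rho 0.21). Where site width changes little, the share has to fall as the domain widens. Site widths are extents of called sites and say nothing of the height of the mark inside them.

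**Figure D4:**
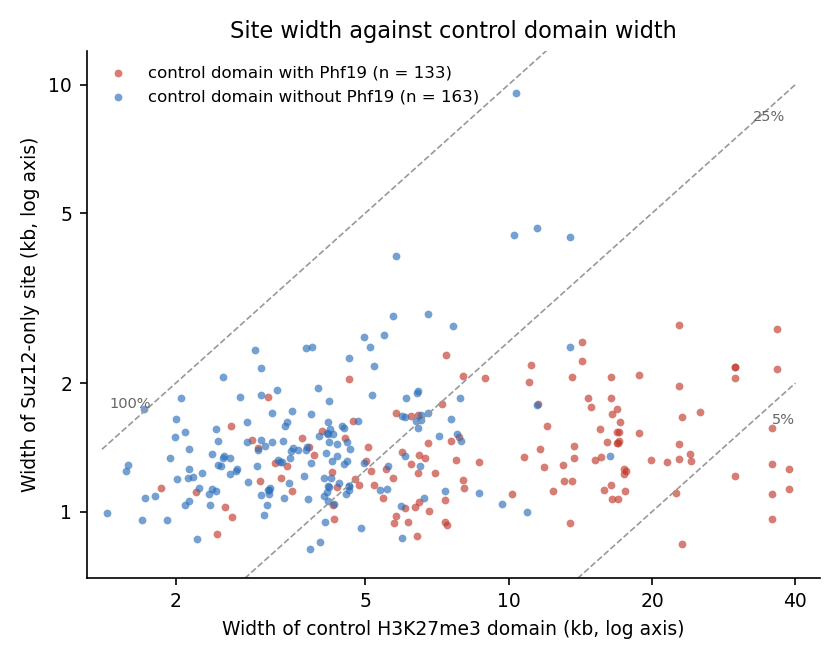
Width of each Suz12-only site against the width of its control domain, both in kb on log axes, for domains with Phf19 (red, 133 sites) and without (blue, 163 sites). Dashed lines mark sites spanning 100%, 25% and 5% of the domain, and most points lie between 1 and 2 kb over the whole range of domain widths.

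Against the 655 sites of the depleted cells with Suz12 and Phf19, Suz12-only sites lay less squarely on Suz12. Suz12 covered a median of 78.9% of a Suz12-only site (interval of the median 72.6 to 84.8) and 100% of a site with both proteins. The widest Suz12 site under them had a median of 2.65 kb (2.50 to 2.80) and 4.39 kb (4.22 to 4.64). Sites with both were also wider, 1529 bp (1470 to 1564) against 1355 bp (1313 to 1417). The rule fixes part of this, because a narrow site has fewer bases on which to meet Phf19, so these values are a description without a test. The parent domains of the sites with both had a median of 9.45 kb, between those of the 2 kinds of Suz12-only site.

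The position inside the domain was compared next. The centre of the site fell between 25% and 75% of the domain's length for 67.7% (59.0 to 75.5) of Suz12-only sites in domains with Phf19 and for 71.2% (67.4 to 74.7) of sites with Suz12 and Phf19. It did so for 82.8% (76.1 to 88.3) in domains without Phf19, and for 72.3% (63.1 to 80.4) of the sites with neither protein that lay on a control site. A site inside its domain has its centre nearer the middle the more of the domain it spans. The median span was 37.7% in domains without Phf19 and 14.5% in domains with it. Part of the contrast in position therefore follows from width, and placement beyond that was not tested. The 205 sites with neither protein stood apart: 54.6% (47.6 to 61.6) lay on a control site, and those spanned a median of 89.2% of it. Their median gap to Phf19 was 1629 kb.

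Another site of the depleted cells lay within 10 kb of 79 of the 133 Suz12-only sites in domains with Phf19 (59.4%, 50.5 to 67.8), against 31 of the 163 in domains without (19.0%, 13.3 to 25.9). The share was 64.7% (60.9 to 68.4) for the 655 sites with Suz12 and Phf19 and 44.4% (37.5 to 51.5) for the 205 with neither. Suz12-only sites in domains without Phf19 were thus mostly solitary, and those in domains with Phf19 were near the sites with both proteins. Wider domains leave more room for several sites, and the part of width in this was not tested. In all, 217 Suz12-only sites had no other Suz12-only site within 50 kb, and runs of 4 or more numbered 6.

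The 22 sites without a control site were wider, with a median of 2348 bp (interval of the median 1453 to 3035), and many of them sat in such runs. On chromosome 1, 172993650 to 173015641, 5 sites covered 97.5% of 22.0 kb, and 5 Suz12 sites covered 99.1% of it, with no control H3K27me3 site and no Phf19 site inside. The widest of the 5, at 173005339 to 173012865 (7.53 kb), lay 31.2 kb from Phf19. Next in width there were 172997771 to 173002022 (4.25 kb) and 172993650 to 172997618 (3.97 kb). On chromosome 4, 88405231 to 88450523, 3 of 4 Suz12-only sites had no control site. In that run 11 Suz12 sites covered 78.2% of the 45.3 kb, no Phf19 site was listed, and the widest site was 88446988 to 88450523 (3.54 kb). A solitary site of 4.50 kb without a control site was listed at chromosome 15, 91736594 to 91741093, 233 kb from Phf19.

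Of the other 4 runs, 3 lay among Phf19 sites that covered 35.9% to 39.7% of their length. On chromosome 15, 102763110 to 102859738 (96.6 kb), 8 of 29 sites of the depleted cells were Suz12-only amid 39 Phf19 sites. Of the 8, 5 had a parent domain with Phf19 and 3 had no control site. Control sites covered 28.9% of this run and depleted-cell sites 56.1%. The stretch without a control site also held depleted-cell sites on Phf19, so its absence from the control list was not particular to the Suz12-only sites. In the run on chromosome 2, 74503887 to 74590161 (86.3 kb), 6 of 20 were Suz12-only amid 23 Phf19 sites. In that on chromosome 6, 52122761 to 52192076 (69.3 kb), 5 of 19 were, amid 24. Control and depleted-cell sites covered 44.3% and 48.5% of the run on chromosome 2, and 56.3% and 55.2% of that on chromosome 6. The last run, 35.8 kb on chromosome 18, held 5 of 7 and had fewer Phf19 sites, 5 that covered 7.55% of its length.

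**Figure D5:**
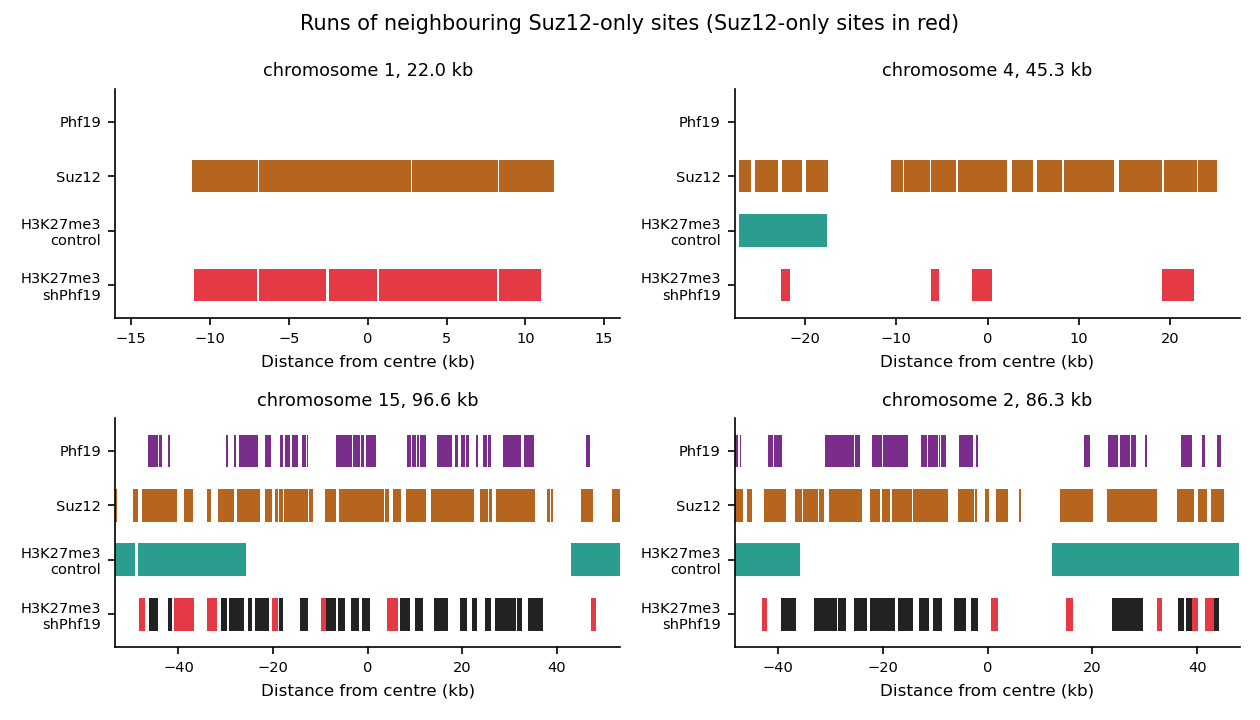
Sites of the 4 lists along 4 runs of neighbouring Suz12-only sites, to scale against the distance from the centre of the run in kb, with 5 kb on either side; Suz12-only sites are red and other sites of the depleted cells black. The runs on chromosomes 1 and 4 show no Phf19 block, and those on chromosomes 15 and 2 hold 39 and 23 Phf19 sites.

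Suz12-only sites far from any Phf19 site were concentrated at 1 place. Of the 25 beyond 1 Mb, 16 lay on chromosome 14 between 4212188 and 8147729, all in control domains without Phf19. That stretch of 3936 kb held 56 sites of the depleted cells, 86 control sites, 43 Suz12 sites and no Phf19 site. The crowding of depleted-cell sites there was thus not particular to Suz12-only sites. Chromosome 14 as a whole held 57 of the 205 sites with neither protein (27.8%, 21.8 to 34.5). It held 21 of the 318 Suz12-only sites and 9 of the 655 sites with both proteins. Of the 49 control domains with Suz12 in the stretch, 13 were still listed (26.5%, 14.9 to 41.1), against 3 of 141 on the rest of the chromosome (2.13%, 0.441 to 6.09). The stretch was picked out after its values were seen. The widest Suz12-only site of all was there, at 5727206 to 5736736 (9.53 kb), spanning 92.0% of its 10.4 kb domain, with 26.8% of it under Suz12 and Phf19 7436 kb away. The farthest from Phf19, at 4212188 to 4215061 (2.87 kb), lay 8958 kb away, and those at 4958569 to 4959867 and 5492337 to 5493960 lay 8213 and 7679 kb away. At chromosome X, 166407535 to 166409270, the only Suz12-only site of that chromosome coincided with its 1.72 kb domain, 8583 kb from Phf19. No mappability track was used, and any part of repeated sequence in these places was not tested. Without the 16 sites, the median gap to Phf19 in domains without Phf19 was 152 kb and the median domain width 3.79 kb. The difference by Suz12 width in the widest class was 6.76 points (2.33 to 10.7) without chromosome 14.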

How the data were processed

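The deposited files are 4 lists of sites (genomic start and end, no score). Bowtie 0.12.7, MACS 1.4.1 and mm9 are named, per the submitters' processing notes, without roles; the peak threshold, control library and filters used by the authors are not given in the sources. Phf19 sites are those present in both replicates, per the design text. H3K36me3, H3K36me2 and IgG libraries were not analysed here.

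Width is end minus start, and sites overlap when they share at least 1 base. Shares carry exact Clopper-Pearson 95% intervals, medians distribution-free binomial ones and differences of shares Newcombe ones; all cover counting error over sites only. With 1 library per condition, no p-value is given. Sites named are the 10 widest, the 5 farthest from and 5 nearest to Phf19, the 5 on the widest domains with and without Phf19, the 5 widest without a control site, and runs of 4 or more within 50 kb. The sites, splits and rules were chosen with earlier results of these data known. Overlap counts equalled those of bedtools 2.31.1 in 12 of 12 cases, and 300 of 300 simulated sites were classed correctly. Computation used scipy 1.17.1, pandas 2.3.3 and statsmodels 0.14.6 under Python 3.11.15 with numpy 2.4.6, and figures matplotlib 3.10.9.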

Additional observations from a re-analysis of the deposited data

How the results depend on the processing

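Of 28 alternative values for the 4 main results, 18 stayed inside the interval of the reported value and 10 moved beyond it; leaving out chromosome 14 was added after the data were seen and moved none. The definition of overlap moved the share with Phf19 in the domain, the median gap and the median share of the domain, but not the share on a control site. Asking for 50% of the shorter site gave 345 sites, a domain with Phf19 for 59.6% of those on a control site, a median gap of 717 bp and a median share of the domain of 24.3%. Counting sites within 1 kb as overlapping gave 222 sites, 24.9%, a gap of 113653 bp and 32.5%. With only the depleted-cell sites no narrower than their median, 87.5% lay on a control site and the median share of the domain was 32.1%. Merging neighbours within 1 kb gave a share of 22.4%, and leaving out runs of 4 or more gave 96.8% on a control site. For these moved values the cause of the change was not tested. The median gap of 5576 bp had an interval of 2623 to 26365 bp, since few sites lie near it. No paired analysis was possible because each list stands for a single library or pools both replicates, so none could be left out either. Without scores, no stricter peak threshold could be set.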

Other observations

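Control domains with Suz12 and without Phf19 that were still listed had another control site closer by, with a median gap of 2.47 kb (interval of the median 1.11 to 6.38) against 8.19 kb (6.35 to 10.8) for those no longer listed. With another control site within 10 kb, 4.67% (97 of 2078) were still listed, against 3.23% (63 of 1951) of the others, a difference of 1.44 percentage points (Newcombe 95% interval 0.231 to 2.65). The 160 domains still listed were also wider than the rest, and 13 of them lay in the chromosome 14 stretch described above. The part of domain width and of that stretch in this difference was not tested. Among chromosomes, the share still listed was highest on chromosomes 14 (16 of 190, 8.42%, 4.89 to 13.3) and 4 (21 of 301, 6.98%, 4.37 to 10.5) and lowest on chromosome 1 (3 of 274, 1.09%, 0.226 to 3.17).

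The kinds of Suz12-only site varied in number from chromosome to chromosome. Chromosome 8 held 13 in domains with Phf19 and 5 in domains without, chromosome 4 held 7 and 21, chromosome 10 held 2 and 9, and chromosome 17 held 3 and 11. Over all chromosomes the split was 133 and 163. The counts per chromosome are small and were not compared with the control domains of each kind there. Chromosome 1 held 6 of the 22 sites without a control site, 5 of them in the run described above.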
